A study of Mus musculus with 3 samples.

Results

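The IL-6 family genes described here are 9 genes: the ligands Il6, Lif and Il11, the receptor chains Il6ra, Il6st, Osmr and Lifr, the transcription factor Stat3 and its feedback inhibitor Socs3. They were chosen by gene symbol, and all 9 of 9 were found among the 18287 genes listed in the deposited tables. The RNA came from mouse aortic endothelial cells (MAECs), cells of the inner lining of the aorta bought as a culture, with 1 library in each of 3 groups. The control library came from cells labelled as control. The second library came from cells given glucose oxidase (5 mU/mL, 30 min), an enzyme that oxidizes glucose and releases hydrogen peroxide. The third represents cells given glucose oxidase at the same dose and time together with ethyl-2-hydroxybenzylamine (Et2HOBA, 0.2 mM, 24 h), which the study used to scavenge the reactive adducts that form under oxidative stress. The labels give neither the order of the 2 exposures nor the time between exposure and harvest, and no library with Et2HOBA alone was analysed here, so an effect of Et2HOBA by itself cannot be told apart from its effect on the oxidant response.

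Cytokines of the IL-6 family are secreted signals of inflammation, wound repair and blood cell production. Each binds a receptor complex that contains the shared chain encoded by Il6st, and Janus kinases attached to the complex then phosphorylate STAT3, which enters the nucleus and switches on target genes. One of these targets is Socs3, whose protein binds the receptor and its kinases and shuts the signal down. Endothelial cells both release IL-6 and respond to it, partly through soluble IL-6 receptor shed by other cells, and they also respond to oncostatin M and leukaemia inhibitory factor.

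Where 3 values stand in a row below, they follow the order of groups just given. Since each group has 1 library, no replicate spread exists and the conditions could not be tested against each other. Ratios of single genes are ratios of normalized read counts, with exact Clopper-Pearson intervals at 95% on the reads of 2 libraries. These intervals cover counting error only, and they compare libraries, not conditions. Log2 ratios carry a pseudocount of 10 normalized counts, which understates the change of low genes, and a gene was counted as past the limit when that ratio reached 1 in either direction. The libraries held 35005089 to 40212212 reads over the listed genes. In RNA from a whole culture, a change in the number of cells of a type and a change in RNA per cell cannot be told apart.

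The promoter sequences of the 4 members that passed the limit in any comparison are shown first, because these are the windows in which shared sequence elements could be looked for. Each is the RefSeq window (build GRCm38.p6) from 250 bases before to 50 bases after an annotated start site, read 5′ to 3′ on the strand of the gene. All 9 members had such a window, 11 windows in all. Capitals mark matches, on either strand, to any of 6 motifs: TTCNNNGAA (the STAT element), an NF-kappaB motif (of which GGGATTTTCC is one form, with the bases at positions 4 and 5 free), TGANTCA (AP-1), TGACGTCA (CRE), TGATGNAA (C/EBP-ATF) and TGACNNNGC (the antioxidant response element). The windows lie at chr5:30012864-30013163 (plus strand), chr11:117969317-117969616 (minus strand), chr15:6874264-6874563 (minus strand) and chr3:89913147-89913446 (minus strand), in the order printed.
Il6: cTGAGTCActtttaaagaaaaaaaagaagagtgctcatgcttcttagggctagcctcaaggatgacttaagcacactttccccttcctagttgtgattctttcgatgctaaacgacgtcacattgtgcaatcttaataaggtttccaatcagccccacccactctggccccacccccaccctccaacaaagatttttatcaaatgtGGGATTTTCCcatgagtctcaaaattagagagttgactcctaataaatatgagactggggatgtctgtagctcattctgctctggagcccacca
Socs3: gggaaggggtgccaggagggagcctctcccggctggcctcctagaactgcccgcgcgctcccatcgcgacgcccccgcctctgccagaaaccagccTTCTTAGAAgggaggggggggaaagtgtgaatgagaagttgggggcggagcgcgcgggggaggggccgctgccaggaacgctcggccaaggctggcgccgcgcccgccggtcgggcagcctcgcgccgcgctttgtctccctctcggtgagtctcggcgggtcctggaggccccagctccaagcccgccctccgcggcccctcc
Osmr: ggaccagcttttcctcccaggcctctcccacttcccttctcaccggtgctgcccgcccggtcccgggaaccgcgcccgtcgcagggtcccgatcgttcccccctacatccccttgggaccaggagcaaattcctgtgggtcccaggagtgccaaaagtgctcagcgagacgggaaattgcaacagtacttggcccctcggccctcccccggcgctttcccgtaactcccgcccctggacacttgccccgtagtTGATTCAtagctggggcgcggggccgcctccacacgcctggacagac
Il6ra: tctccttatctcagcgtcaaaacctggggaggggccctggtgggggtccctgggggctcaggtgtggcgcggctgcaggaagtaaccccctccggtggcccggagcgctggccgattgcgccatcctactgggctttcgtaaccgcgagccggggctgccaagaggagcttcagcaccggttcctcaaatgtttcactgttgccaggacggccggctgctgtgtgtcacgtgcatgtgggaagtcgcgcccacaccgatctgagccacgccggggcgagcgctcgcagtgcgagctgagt
The Il6 window held 1 NF-kappaB match, GGGATTTTCC, at bases -44 to -35 from the start site, and 1 AP-1 match at -249 to -243. The NF-kappaB motif occurred in 1.63% of all 32851 RefSeq windows of 300 bases and the AP-1 motif in 7.81%. In the Socs3 window the match was a STAT element, TTCTTAGAA, at -154 to -146, a motif held by 8.3% of all windows. Osmr had an AP-1 match just after the start site, at 4 to 10, and Il6ra had no match to the 6 motifs in its window. Among the other members the STAT element was not found in any of the 7 windows, and Lif and Il11 each had 1 AP-1 match. The antioxidant response element, present in 12.4% of all windows, matched once in Lif, at -241 to -233, and once in Lifr, at -247 to -239. No match overlapped another in these windows. A match describes letters only and shows no binding.

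The first comparison sets the glucose oxidase library against the control library. Il6, Socs3 and Osmr were past the limit, all higher, 3 of 9 members, beside 4.07% of the 18287 listed genes that were higher by as much. No member was lower past the limit, beside 8.6% of all genes, although Il6ra came close. The median log2 ratio of the 9 genes was 0.38, against -0.01 over all listed genes. Osmr passed the limit by a narrow margin, and the interval of its ratio reached below 2. On the scale of the deposited log2 differences, which shrinks low counts more, Il6 alone stayed past the limit (1 of 9, beside 4.01% of all genes in either direction), while Socs3 had a value of 0.82 and Osmr of 0.83.

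In the second comparison, glucose oxidase plus Et2HOBA with control, the same 3 members were higher past the limit and Il6ra was lower past it. Over all listed genes 6.66% were higher and 8.04% lower by as much. The median log2 ratio of the 9 genes was 0.57, against 0.00 over all genes. Both comparisons use the same control library, so the recurrence of the same members is not a second, separate observation. Socs3 fell just short of the limit on the deposited scale, at 0.98.

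The third comparison sets the library with Et2HOBA against the one with glucose oxidase alone. Only Il6 of the 9 members was past the limit, higher with Et2HOBA, beside 6.39% of all listed genes. None was lower past the limit, beside 2.15% of all genes, and the other 8 members had log2 ratios from -0.35 to 0.40. Recomputed on the scale of the deposited differences, Il6 was at 0.65 in place of 1.43 and no member passed, beside 0.235% of all genes.

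**Figure D1:**
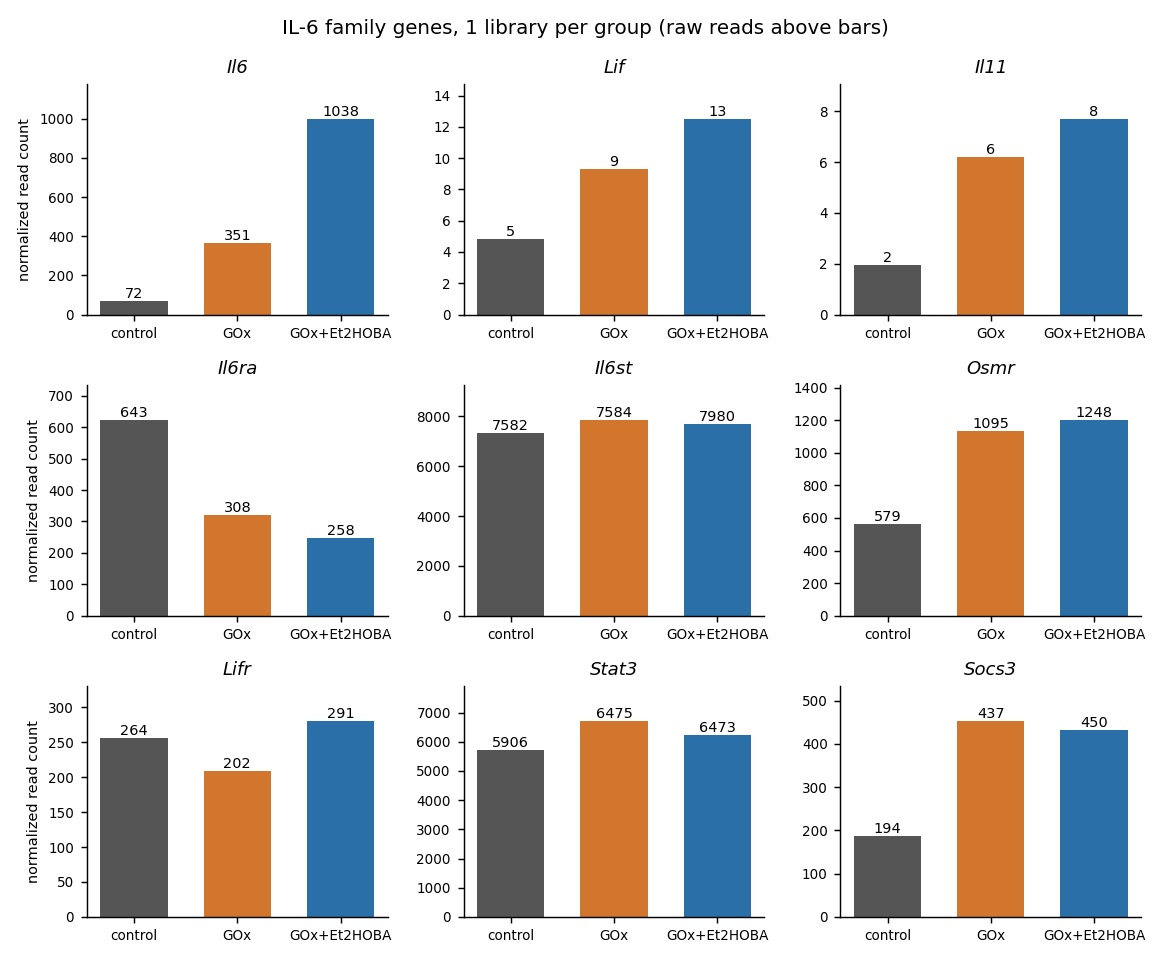
Normalized read counts (y axis, own scale from 0 in each panel) of the 9 IL-6 family genes in the libraries of control, of glucose oxidase (GOx) and of both agents (GOx+Et2HOBA), 1 bar per library with its raw reads above it. Il6 climbs from 72 to 351 and 1038 reads, Osmr and Socs3 are higher in both treated libraries than in control, Il6ra is lower in both, and Il6st and Stat3 stay close to control.

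Of the ligands, Il6 (ENSMUSG00000025746.11, chromosome 5, 30013114 to 30019981) encodes interleukin-6, the founding cytokine of the family and the inducer of the hepatic acute phase response. It had 72, 351 and 1038 reads. The library with both agents was the highest and control the lowest, and each step lay outside counting error. Relative to control, Il6 was 5.21-fold higher after glucose oxidase (95% interval 4.03 to 6.81) and 14.3-fold higher with Et2HOBA added (11.3 to 18.5). Between the treated libraries it was 2.75-fold higher with Et2HOBA (2.43 to 3.11). By log2 ratio Il6 ranked 104 from the highest of 18287 genes in the first comparison, 43 in the second and 682 in the third. In the authors' deposited tables its log2 differences were 1.27 and 3.04 against control, on scales that differ between the tables.

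Lif (ENSMUSG00000034394.14, chromosome 11, 4257557 to 4272514) encodes leukaemia inhibitory factor, which acts through Lifr and Il6st. It had 5, 9 and 13 reads. The counts ascend in that order, but the ratios to control, 1.92 (95% interval 0.579 to 7.31) and 2.58 (0.864 to 9.26), both had intervals that include 1. Il11 (ENSMUSG00000004371.15, chromosome 7, 4772373 to 4782859) encodes interleukin-11, a ligand with a role in stromal and fibrotic responses. With 2, 6 and 8 reads, its ratios were 3.21 (0.573 to 32.5) and 3.97 (0.793 to 38.4). A difference in Lif or Il11 was therefore not detectable at this depth, and 3.42% of the 50-base stretches of the longest Il11 transcript also occur in other genes.

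The receptor chains differed in direction. Il6ra (ENSMUSG00000027947.11, chromosome 3, 89864059 to 89913196) encodes the chain that binds interleukin-6 itself and has no signaling activity of its own. Its reads numbered 643, 308 and 258. Control was the highest library, and the treated libraries lay close together below it. The level was 0.512 of control after glucose oxidase (95% interval 0.446 to 0.587) and 0.399 with Et2HOBA (0.344 to 0.461), with log2 ratios of -0.94 and -1.29. Et2HOBA against glucose oxidase gave 0.779 (0.657 to 0.922). A gene on the other strand, Gm42809, overlaps Il6ra and shares 2.25% of its stretches, but held at most 6 reads in any library.

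Osmr (ENSMUSG00000022146.12, chromosome 15, 6813577 to 6874969) encodes the oncostatin M receptor chain, which pairs with Il6st. It had 579, 1095 and 1248 reads. Both treated libraries were above control by similar amounts, 2.02-fold (95% interval 1.83 to 2.24) and 2.14-fold (1.94 to 2.37). Between the treated libraries the ratio of 1.06 (0.976 to 1.15) was within counting error. Total-count scaling placed Osmr just under the limit in both comparisons with control.

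Lifr (ENSMUSG00000054263.12, chromosome 15, 7090614 to 7197489), the leukaemia inhibitory factor receptor chain, had 264, 202 and 291 reads in the same order. The glucose oxidase library was the lowest, at 0.818 of control (95% interval 0.678 to 0.986). With Et2HOBA the ratio was 1.10 against control (0.924 to 1.30) and 1.34 against glucose oxidase alone (1.12 to 1.61). All 3 ratios were well within the limit. Il6st (ENSMUSG00000021756.12, chromosome 13, 112464070 to 112510086), the signal-transducing chain that all members of the family use, had 7582, 7584 and 7980 reads. Its ratios to control were 1.07 (1.04 to 1.10) and 1.05 (1.01 to 1.08). The second turned below control, to a log2 ratio of -0.09, under total-count scaling, so no direction is given.

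**Figure D2:**
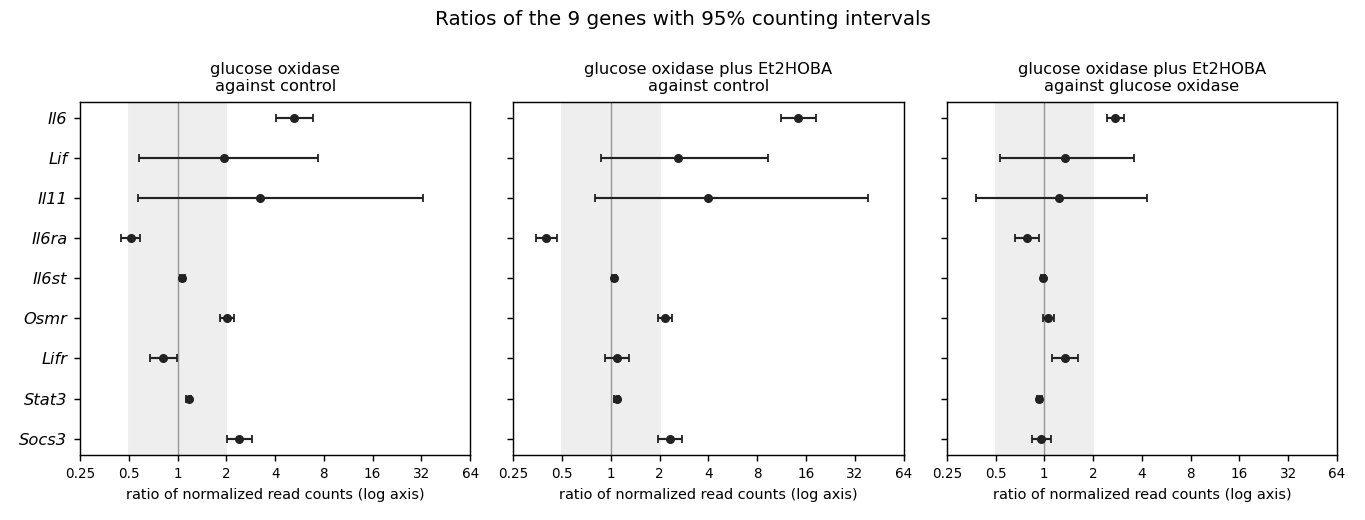
Ratios of normalized read counts (x axis, log scale) of the 9 genes in each of the 3 comparisons, with 95% exact counting intervals from the reads of 2 libraries; the grey band spans ratios of 0.5 to 2. Il6 lies to the right of the band in all 3 panels, Il6ra lies to the left of it with Et2HOBA against control, and Lif and Il11 have wide intervals that include 1.

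Stat3 (ENSMUSG00000004040.16, chromosome 11, 100885098 to 100939540), the transcription factor activated by phosphorylation downstream of these receptors, had 5906, 6475 and 6473 reads. The ratios to control were 1.17 (95% interval 1.13 to 1.21) and 1.09 (1.05 to 1.13), and the second changed sign under total-count scaling, to a log2 ratio of -0.03. RNA abundance does not measure phosphorylation of the protein. Stat5a overlaps Stat3 on the other strand and shares 0.384% of its stretches. Socs3 (ENSMUSG00000053113.3, chromosome 11, 117966079 to 117970047), the feedback inhibitor, had 194, 437 and 450 reads. Both treated libraries were above control, 2.41-fold (2.03 to 2.87) and 2.30-fold (1.94 to 2.74). Against each other they differed by less than counting error, at 0.957 (0.837 to 1.09). Il6 and Socs3 therefore differed in the third comparison, where the Il6 interval began at 2.43 and the Socs3 interval ended at 1.09.

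Levels can be compared between genes only per length, here as RPKM, the reads per kilobase of annotated exon scaled to the library's reads over listed genes. On that scale Il6st and Stat3 were the most abundant members in every library, at 17.9 to 19.5 and 16.9 to 19.4. Il6 was the sixth of the 9 members in control, at 0.824, the fourth after glucose oxidase, at 4.13, and the third with Et2HOBA, at 10.6. Socs3 had levels of 1.87, 4.32 and 3.87, Osmr 1.33, 2.58 and 2.56, and Il6ra 2.07, 1.02 and 0.742 in the same order. Lifr stayed between 0.536 and 0.681, and Lif and Il11 were each below 0.1. Several neighbours in this order lay close together, such as Il6st and Stat3 after glucose oxidase, and no replicate spread is at hand to separate them. The order also depends on the length used. The annotated exons of Osmr cover 12113 bases and its longest transcript 5491, while for Il6 these are 2428 and 2343.

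**Figure D3:**
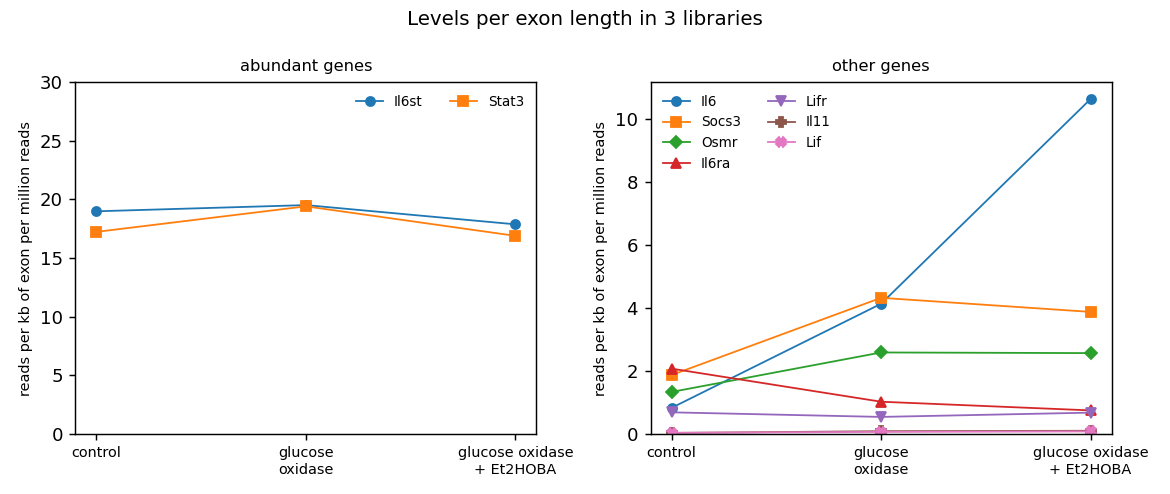
Levels of the 9 genes in RPKM, reads per kilobase of annotated exon scaled to library size (y axis from 0), in the 3 libraries (x axis), with 1 point per library; lines join the points of a gene only to guide the eye. Il6st and Stat3 stay between 16.9 and 19.5 in the left panel, while Il6 in the right panel moves from 0.824 to 4.13 and 10.6 and Il6ra from 2.07 to 1.02 and 0.742.

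The balance between chains on this per-length scale also differed between libraries. The level of Osmr was 1.95 times that of Lifr in control (95% interval 1.68 to 2.27), 4.82 times after glucose oxidase (4.15 to 5.63) and 3.82 times with Et2HOBA (3.36 to 4.35). Il6st exceeded Il6ra 9.18 times (8.47 to 9.97), 19.2 times (17.1 to 21.6) and 24.1 times (21.3 to 27.4), in the same order. The ligand Il6 stood at 0.399 of the level of its own receptor chain Il6ra in control (0.308 to 0.509). That ratio was 4.06 after glucose oxidase (3.47 to 4.74) and 14.3 with Et2HOBA (12.5 to 16.5). Il6 relative to Socs3 stood at 0.442 (0.332 to 0.582), 0.956 (0.829 to 1.10) and 2.75 (2.46 to 3.07). These levels rest on the exons of all annotated isoforms, and the isoforms in use were not measured. Such exons cover 12113 bases in Osmr and 10776 in Lifr, while the longest transcripts have 5491 and 9655. The size of a ratio between genes depends on this choice of length, which the intervals do not cover.

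Of the other ligands and ligand chains of the family, 4 of 7 were listed, and Osm, which encodes the Osmr ligand oncostatin M, was not among the listed genes. Clcf1, which encodes a cytokine that signals through Lifr and Il6st, was higher past the limit in both comparisons with control. It was the only 1 of the 4 to pass, beside 4.07% and 6.66% of all genes higher by as much. Clcf1 had 509, 1207 and 1367 reads. Both treated libraries were above control, 2.53-fold (95% interval 2.28 to 2.82) and 2.67-fold (2.41 to 2.96), and the ratio between them was 1.05 (0.974 to 1.14). Of the other ligand-binding chains, 2 of 3 were listed. Il27ra, a receptor chain for interleukin-27, fell short of the limit after glucose oxidase (log2 ratio -0.83) and was past it with Et2HOBA (-1.38), with 481, 248 and 179 reads. That was 1 of the 2 lower past the limit with Et2HOBA against control, beside 8.04% of all genes. Il11ra1, the interleukin-11 receptor chain, had 631, 496 and 472 reads and log2 ratios of -0.25 and -0.42.

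All 10 Janus kinases and other STAT factors were listed, and their medians against control were -0.04 and -0.21. In the first comparison 1 of 10 was lower past the limit, in the second 2 of 10 and in the third 1 of 10, beside 8.6%, 8.04% and 2.15% of all genes. None was higher past the limit. The kinases used by Il6st were among the rest: Jak1 had log2 ratios against control of 0.02 and 0.10, Jak2 of 0.63 and 0.91, and Tyk2 of 0.17 and -0.09. For Stat3 itself the ratio between the treated libraries was 0.929 (95% interval 0.898 to 0.962). Stat4 was low throughout, with 42, 9 and 4 reads.

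The 15 SOCS and PIAS proteins and phosphatases that dampen JAK-STAT signaling split by gene. After glucose oxidase 1 of 15 was lower past the limit and none higher, and with Et2HOBA 2 were higher and 2 lower. Over all genes 12.7% and 14.7% were past the limit in either direction in these comparisons. Socs2, an inhibitor best known from growth hormone signaling, had 357, 636 and 1180 reads, and was 3.28-fold higher than control with Et2HOBA (95% interval 2.92 to 3.71). Unlike Socs3, Socs2 was also higher with Et2HOBA than with glucose oxidase alone, 1.72-fold (1.56 to 1.90), within the limit. Socs6 had a log2 ratio of 1.02 with Et2HOBA against control. Cish, a feedback inhibitor of STAT5, went the other way with 354, 140 and 87 reads and log2 ratios of -1.19 and -1.91. Ptpn6, a phosphatase most abundant in blood cells, had 97, 49 and 16 reads. Between the treated libraries Ptpn6 was the only 1 of 15 past the limit, lower with Et2HOBA at a log2 ratio of -1.26. Over all genes 2.15% were lower and 6.39% higher by as much in that comparison. Socs1, the inhibitor most closely tied to interferon signaling, had log2 ratios of -0.37 and -0.70.

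RNA-binding proteins that control Il6 mRNA stability were a separate list of 8. In both comparisons with control 1 was higher past the limit and 1 lower, beside 12.7% and 14.7% of all genes past it in either direction. Between the treated libraries none passed it, beside 8.55% of all genes. Arid5a, whose protein protects Il6 mRNA from decay, had 111, 360 and 631 reads. It was 3.47-fold higher than control after glucose oxidase (95% interval 2.80 to 4.33) and 5.65-fold with Et2HOBA (4.61 to 6.97). Zfp36l1, which promotes decay of AU-rich mRNAs, had 5982, 2765 and 2097 reads, with log2 ratios of -1.01 and -1.52. Zfp36, a related decay factor, had log2 ratios of -0.31 and -0.85, and Zc3h12a, the ribonuclease that cuts Il6 mRNA, of -0.19 and -0.16. Zfp36l2, the decay factor with the most reads of the list, went the other way, with 10613, 12894 and 16744 reads and log2 ratios of 0.38 and 0.65. Whether any of these proteins acted on Il6 mRNA here was not measured. The 5 genes of receptor shedding, Adam10 and Adam17 among them, stayed within 0.35 log2 units in every comparison.

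Genes widely described as STAT3 targets numbered 24, all of them listed. In the first comparison 1 was higher and 2 lower past the limit, in the second 7 were higher and 7 lower, and in the third 2 were higher and 4 lower. Over all genes 12.7%, 14.7% and 8.55% were past the limit in either direction. Total-count scaling gave 1 higher and 2 lower, 4 higher and 7 lower, and 1 higher and 6 lower, in the same order. With that scaling 13.2%, 15.4% and 8.71% of all genes were past the limit in either direction. The median log2 ratios of the list in the main setting were 0.22, 0.11 and -0.08. The higher genes included Vegfa, the endothelial growth factor, with 1219, 3413 and 5204 reads, and Pim1, a survival kinase, with 91, 175 and 498. Pim1, like Vegfa and several other genes of the list, followed the same order of libraries as Il6. The share of all listed genes that follow that order was not counted. Pim1 was 2.65-fold higher with Et2HOBA than with glucose oxidase alone (95% interval 2.22 to 3.16). Lower genes included the acute phase gene Saa3, with 2226, 533 and 511 reads, and Steap4, a metalloreductase gene, with 329, 179 and 53. Birc5, which also belongs to the mitotic genes, had 1025, 261 and 120 reads. Fos, an immediate early gene, had 2619, 2364 and 605. The genes of this list thus moved in both directions while Socs3 was higher in both treated libraries.

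**Figure D4:**
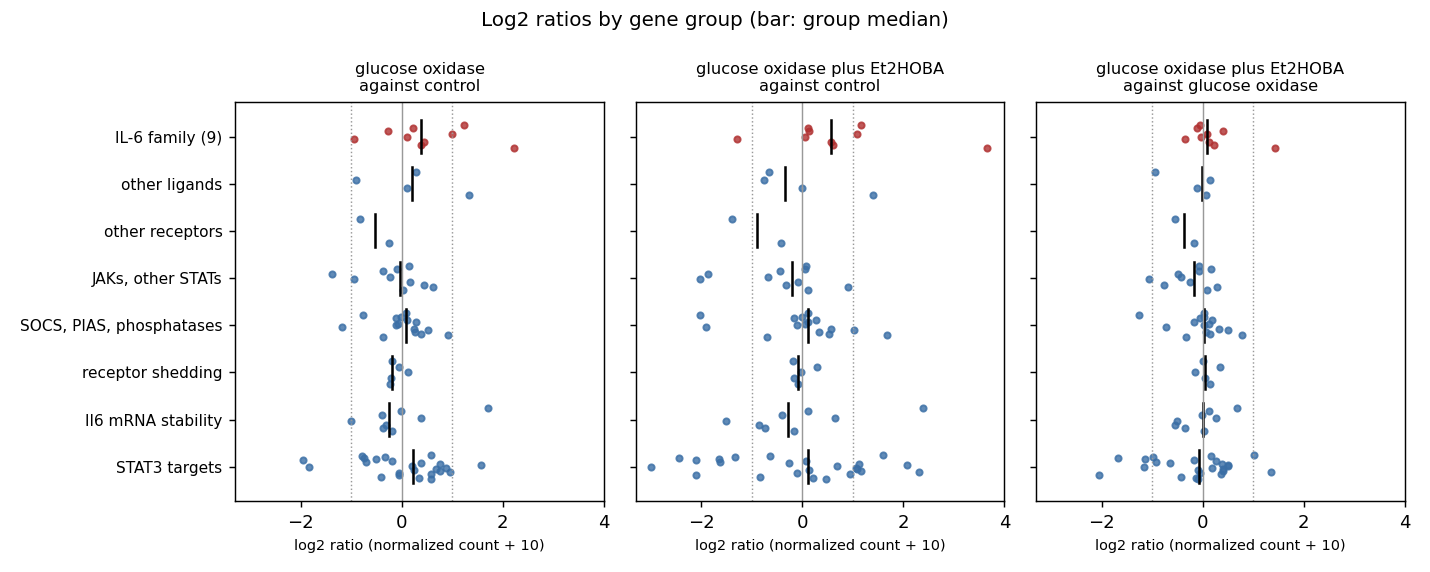
Log2 ratios of normalized count plus 10 (x axis) for the 9 IL-6 family genes (red) and 7 lists of related genes (blue), 1 point per gene, in the 3 comparisons; black bars are group medians and dotted lines mark the limit of 1 in either direction. Il6 is the rightmost point of the IL-6 family in every panel, and the STAT3 targets spread to both sides of 0, with 7 higher and 7 lower past the limit with Et2HOBA against control.

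The genes most like Il6 were taken as the 5 smallest distances in the pair of log2 ratios against control, over 3 libraries and 11123 protein-coding genes with a mean normalized count of at least 50. The 5 lay at distances of 0.18 to 0.42 log2 units and included Il1f6 (an interleukin-36 cytokine gene), Ngef, Rufy4 and Gadd45a (a DNA damage and stress gene). Il1f6 had 4, 57 and 193 reads.

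Markers of other cell types were looked up because fibroblasts, smooth muscle cells and leukocytes can also make Il6. All 10 endothelial markers were listed, with summed normalized counts of 354942, 228248 and 207970. Of these, 3 of 10 were lower past the limit after glucose oxidase and 5 of 10 with Et2HOBA against control. Over all genes 8.6% and 8.04% were lower by as much. Of 6 fibroblast markers 3 were listed, and Col1a2, Dcn and Lum were not. Their sum was 133, 1416 and 2738, nearly all of it from Pdgfra, with 107, 1325 and 2821 reads, while Col1a1 had 28, 30 and 23. The 5 of 6 smooth muscle markers listed summed to 3714 to 4856, mostly Smtn, and Acta2 had 8, 18 and 13 reads. Of these markers only Myh11, with 19, 35 and 73 reads, passed the limit, with Et2HOBA against control (3.82-fold, 95% interval 2.28 to 6.70). That was 1 of the 5, beside 6.66% of all genes higher by as much. Of 9 leukocyte markers 4 were listed, and Ptprc, Adgre1, Itgam and Cd3e were among those not listed. The 4 listed ones summed to 8200, 17911 and 27120, nearly all of it Cd68, a lysosomal protein gene, Cd14 had 55, 136 and 272 reads, and Csf1r had 6, 12 and 10. Lyz2, a lysozyme gene of myeloid cells, was past the limit in the other direction, with 186, 76 and 86 reads. In both comparisons with control 2 of these 4 were higher and 1 lower past the limit. Over all genes 4.07% and 6.66% were higher by as much, and 8.6% and 8.04% lower. The markers Pdgfra, Myh11, Cd68 and Cd14 thus ascended in the same order of libraries as Il6. The other 8 listed markers of these 3 cell types did not. The endothelial marker Emcn ascended too, with 5373, 6333 and 7936 reads and log2 ratios against control of 0.33 and 0.55. The other endothelial markers did not ascend in this order. The share of all listed genes that ascend in this order was not counted, so no excess can be read from these markers. The part of these 3 cell types in the result was not tested.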

How the data were processed

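Poly(A) RNA of the endothelial cells went into a stranded library preparation, per the labels' protocols. STAR, featureCounts and build mm10 are named in the submitters' processing notes; versions, annotation and strand setting are not given in the sources used here. For 18287 genes the authors deposited raw read counts of control and of glucose oxidase plus Et2HOBA, with log-normalized columns and a log2 difference, per the file headers. Glucose oxidase against control was deposited as a symbol and a log2 difference, and treated against treated likewise for 7 genes, none of them a member.

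The deposited log2 values are, up to a constant, the arcsinh of the root of each scaled count, a form found from the values and stated nowhere in the labels or headers. The form was solved for the glucose oxidase library, with control known and scaling constants fitted to the same values. It returned whole reads (tolerance 0.01) for 100% of the 18275 symbols that match once. With 1 read added to every control count and the constants not fitted again, 3.31% came out whole. What a new fit to those shifted counts would return was not tested. Another 12 genes share a listed name in pairs and were assigned to the value that gave whole reads.

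Normalization used size factors by median of ratios over the 3 libraries (1.03, 0.965 and 1.04), and log2 ratios had a pseudocount of 10. No count model was fitted, since 1 library per group gives no spread. Python 3.11.15 and scipy 1.17.1 were used, and the scripts were tested on simulated data. Exon lengths, overlaps and shared 50-base stretches came from GENCODE release M21; all 17878 gene IDs of the same version had the same position there. Promoters came from RefSeq (GRCm38.p6).

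Named genes were the 9 members, list genes past the limit (at most 6 per list by size, of which a part is given), 11 pathway genes named whatever their values, and the 5 genes most like Il6. Some genes that this rule names are not reported here. Adam10, Adam17, Zfp36l2, Smtn, Acta2, Col1a1, Csf1r and Emcn were named after their values were seen. The members and lists were chosen with earlier results of these data known.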

Additional observations from a re-analysis of the deposited data

How the results depend on the processing

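The number of IL-6 family members past the limit depended on the limit and the scale. At a limit of 2 log2 units it was 1 after glucose oxidase, 1 with Et2HOBA against control and 0 between the treated libraries, beside 2.88%, 3.8% and 2.14% of all genes. On the scale of the authors' deposited log2 differences, recomputed for the treated pair, it was 1 after glucose oxidase, 3 with Et2HOBA against control and 0 between the treated libraries, where Il6 had a value of 0.65. The shares of all genes were 4.01%, 9.67% and 0.235%, and Socs3 dropped out in both comparisons with control. Scaling by total reads moved the median over all listed genes to -0.06, -0.13 and -0.08 in the 3 comparisons, and 3, 3 and 1 members passed, beside 13.2%, 15.4% and 8.71% of all genes: Il6ra replaced Osmr after glucose oxidase, and Osmr dropped out with Et2HOBA. Pseudocounts of 1 and 50 gave 4 and 2 members after glucose oxidase, 6 and 4 with Et2HOBA and 1 and 1 between the treated libraries. The shares of all genes were 23.2%, 24.6% and 18.1% with a pseudocount of 1 and 6.36%, 9.27% and 3.2% with 50. With a pseudocount of 1, Il11 entered in both comparisons with control and Lif only with Et2HOBA against control. Lif and Il11 have too few reads to place. The direction of Il6st, Lifr and Stat3 with Et2HOBA against control, and of Osmr between the treated libraries, changed sign with total-count scaling. No paired analysis was possible because each group has 1 library.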
